A study of Mus musculus with 6 samples.

Results

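Izumo1, Izumo3, Tmem95, Spaca6, Dcst1 and Dcst2, genes whose proteins act at or before the fusion of sperm and egg, were followed through sperm formation in the mouse testis. They are 6 of the 32285 genes counted. They were chosen by name. Germ cell stages were set from the UMIs of marker genes that do not include them, and diets come from the sample labels. A UMI is a tag that marks a single captured RNA molecule, and a barcode marks the droplet, taken here as a cell, in which it was captured.

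Fertilization ends with the joining of the plasma membranes of the gametes. IZUMO1, a protein of the sperm acrosome that moves to the sperm surface once the acrosome has opened, binds JUNO (gene Izumo1r) on the egg. TMEM95, SPACA6, DCST1 and DCST2 are sperm membrane proteins without which mouse sperm bind eggs but fuse poorly or not at all, and IZUMO3 is a relative of IZUMO1 known for its part in the building of the acrosome. Sperm arise from spermatocytes, which pass through meiosis, and from round spermatids, which build the acrosome and then elongate while histones are replaced by transition proteins and protamines.

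The data are single-cell RNA sequencing libraries from whole testes of 8-week-old wildtype C57BL/6 mice (C57BL/6N in the study's methods) that had been kept for 2 weeks on food high in fat (HFD) or low in fat (LFD). There were 3 libraries per diet, and each aimed at 10000 cells. No allele, transgene or drug was used in any group. For all 6 libraries the diet in the file name is the reverse of that in the label. The study's barcode numbers per library go with the file names. The labels were followed, so the groups are called the libraries labelled HFD and LFD. If the file names are right each difference between diets changes sign.

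The 6 libraries held 48939 barcodes and 429495465 UMIs, from 39196921 to 95845514 UMIs per library. The 12392 barcodes with at least 5000 UMIs held 78.6% of the UMIs. Of these, 9335 were placed in 8 germ cell stages, 399 in somatic cell types and 2658 nowhere, and every germ stage had at least 42 barcodes in every library. The markers were highest in their own stage for 9 of 9 genes in spermatogonia, 8 of 8 in early prophase spermatocytes, 5 of 6 in late spermatocytes, 8 of 8 in early round, 7 of 7 in later round and 7 of 7 in elongating spermatids. They were so for 4 of 5 in spermatids starting elongation but for 2 of 6 (Piwil1 and Adad2) in pachytene spermatocytes. The same markers had placed the barcodes, so these counts describe the gates and are no separate test of them. Any pair of libraries shared between 12 and 28 barcodes. Haemoglobin genes took 2 UMIs in HFD replicate 1 and 0 in LFD replicate 1, but 1196 to 6724 UMIs in the other 4 libraries.

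Positions are given in mouse assembly GRCm38 (mm10) with the GENCODE M21 annotation. Izumo1 (ENSMUSG00000064158) lies on chr7:45621811-45628823 on the plus strand and Izumo3 (ENSMUSG00000028533) on chr4:92144329-92147234 on the minus strand. Tmem95 (ENSMUSG00000094845) lies on chr11:69876684-69878018 on the minus strand and Spaca6 (ENSMUSG00000080316) on chr17:17827158-17843009 on the plus strand. Dcst1 (ENSMUSG00000042672, chr3:89350219-89365253, minus strand) and Dcst2 (ENSMUSG00000109293, chr3:89361975-89377549, plus strand) overlap on opposite strands and share 0 exonic bases. The last 500 exonic bases of Izumo1 lie in exons of Rasip1 on the same strand. Reads that fit both genes are not counted by Cell Ranger, so the counts of Izumo1 are uncertain to that extent. Rasip1 itself stood at 4.60 ± 0.843 CPM (UMIs of a gene per 1000000 UMIs, SD, n = 6 libraries) in later round spermatids. Dcst1 also shares 1268 exonic bases with the pseudogene Gm10702 on the opposite strand, and Spaca6 shares 47 with Mir125a on its own strand.

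The promoters of all 6 genes were taken from RefSeq (GRCm38.p6) and searched on both strands, in the 250 bases before the start, for the cAMP response element TGACGTCA, its shorter core TGACG, the RFX-type letters GTTGCC, the SOX-type letters ACAAT and the TATA letters TATAAA. CREM, a regulator of spermatid genes, is known to bind the cAMP response element. The Izumo1 promoter held TGACGTCA once, 96 bases before the start (1.55% of 32851 promoters held it), and Tmem95 held the core alone at 208 bases (17.8% of promoters) and ACAAT at 88 and 80 bases (27.7%). Spaca6 held GTTGCC at 53 bases (10.4%), and none of the 5 motifs (TATAAA, 12.4%) was in the windows of Izumo3, Dcst1 and Dcst2. The RefSeq starts of Spaca6 (chr17:17830975) and Dcst2 (chr3:89365319) lie inside the GENCODE genes given above. The bases before the GENCODE starts of these genes were not searched. The Spaca6 window (chr17:17830725-17830974) covers Mir125a. Shown are the Izumo1 promoter (chr7:45621561-45621810, plus strand), the Tmem95 promoter, whose gene behaved most differently from Izumo1 below (chr11:69878056-69878305, minus strand), and the 65 bases between the RefSeq starts of Dcst1 and Dcst2 (chr3:89365254-89365318, plus strand), from which both genes run in opposite directions. Capitals mark TGACG or TGACGTCA. A match of letters is a description and shows no binding.
Izumo1: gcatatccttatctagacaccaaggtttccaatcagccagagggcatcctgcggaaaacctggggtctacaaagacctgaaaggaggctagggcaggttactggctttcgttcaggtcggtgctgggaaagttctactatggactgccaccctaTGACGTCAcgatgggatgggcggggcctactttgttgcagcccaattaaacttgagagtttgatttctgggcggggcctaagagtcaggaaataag
Tmem95: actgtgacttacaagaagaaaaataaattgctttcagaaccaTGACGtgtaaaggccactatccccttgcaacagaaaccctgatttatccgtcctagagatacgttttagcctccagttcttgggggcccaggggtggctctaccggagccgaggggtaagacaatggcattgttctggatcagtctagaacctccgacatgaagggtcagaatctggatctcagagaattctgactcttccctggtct
Dcst1-Dcst2: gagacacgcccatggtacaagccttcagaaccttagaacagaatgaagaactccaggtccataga

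All 6 genes were low through meiosis and high in round spermatids. They fell away at different points of elongation, and Tmem95 went first while Izumo3 was still present in elongating spermatids. Levels are given as CPM over the UMIs of a library's barcodes in that stage, and CPM compares stages within a gene and not levels between genes.

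Izumo1 stood at 7.39 ± 5.99 CPM (SD, n = 6 libraries) in pachytene and 10.3 ± 4.81 in late spermatocytes. It reached 72.9 ± 10.8 CPM in early round spermatids and 179 ± 8.24 in later round spermatids. In later round spermatids its level was 173, 176 and 187 CPM in the libraries labelled HFD and 184, 167 and 186 in those labelled LFD. These 6 values lay within a narrow band, and none came near the spermatocyte values. It was 151 ± 24.1 CPM in spermatids starting elongation and 19.4 ± 14.03 in elongating spermatids.

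Izumo3 stood at 13.6 ± 6.44 CPM in pachytene and 26.2 ± 7.78 in late spermatocytes, at 201 ± 33.2 in early round spermatids and at 365 ± 48.1 in later round spermatids. In later round spermatids it was 331, 415 and 436 CPM in the libraries labelled HFD and 354, 325 and 332 in those labelled LFD. HFD replicates 2 and 3 were the highest, while HFD replicate 1 lay among the LFD libraries. The level was 261 ± 40.5 CPM in spermatids starting elongation and 168 ± 22.3 in elongating spermatids.

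Tmem95 had the narrowest window. Its level was 2.12 ± 0.811 CPM in late spermatocytes, 35.7 ± 7.08 in early round and 76.2 ± 4.59 in later round spermatids, and then 7.0 ± 1.46 in spermatids starting elongation. The later round values were 73.5, 68.4 and 80.9 CPM in the libraries labelled HFD and 76.9, 78.4 and 79.2 in those labelled LFD, and the values one stage later were 8.0, 9.2 and 7.1 CPM against 6.7, 6.1 and 5.0. No library of the later stage came near any of the earlier one.

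Spaca6 was the 1 gene whose mean was highest in the gate of starting elongation. Its level was 3.62 ± 0.777 CPM in late spermatocytes, 27.7 ± 5.45 in early round, 64.3 ± 4.58 in later round and 80.5 ± 8.90 in spermatids starting elongation, before 9.38 ± 5.38 in elongating spermatids. At the start of elongation it was 75.8, 84.8 and 76.9 CPM in the libraries labelled HFD and 76.3, 72.4 and 96.6 in those labelled LFD. All 6 libraries were higher than in their own later round spermatids.

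The neighbours Dcst1 and Dcst2 had similar windows. Dcst1 stood at 4.47 ± 2.14 CPM in late spermatocytes, 32.2 ± 5.76 in early round, 71.8 ± 12.6 in later round, 23.1 ± 2.05 in starting and 5.06 ± 3.84 in elongating spermatids. Dcst2 stood at 4.14 ± 2.17, 29.1 ± 4.29, 55.8 ± 9.0, 16.9 ± 3.37 and 3.52 ± 2.60 CPM in the same stages. In later round spermatids Dcst1 was 80.5, 54.3 and 58.5 CPM in the libraries labelled HFD and 80.3, 73.0 and 84.4 in those labelled LFD, and Dcst2 was 62.4, 42.1 and 47.6 against 57.3, 60.7 and 64.6. HFD replicates 2 and 3 were the lowest libraries for both genes.

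**Figure D1:**
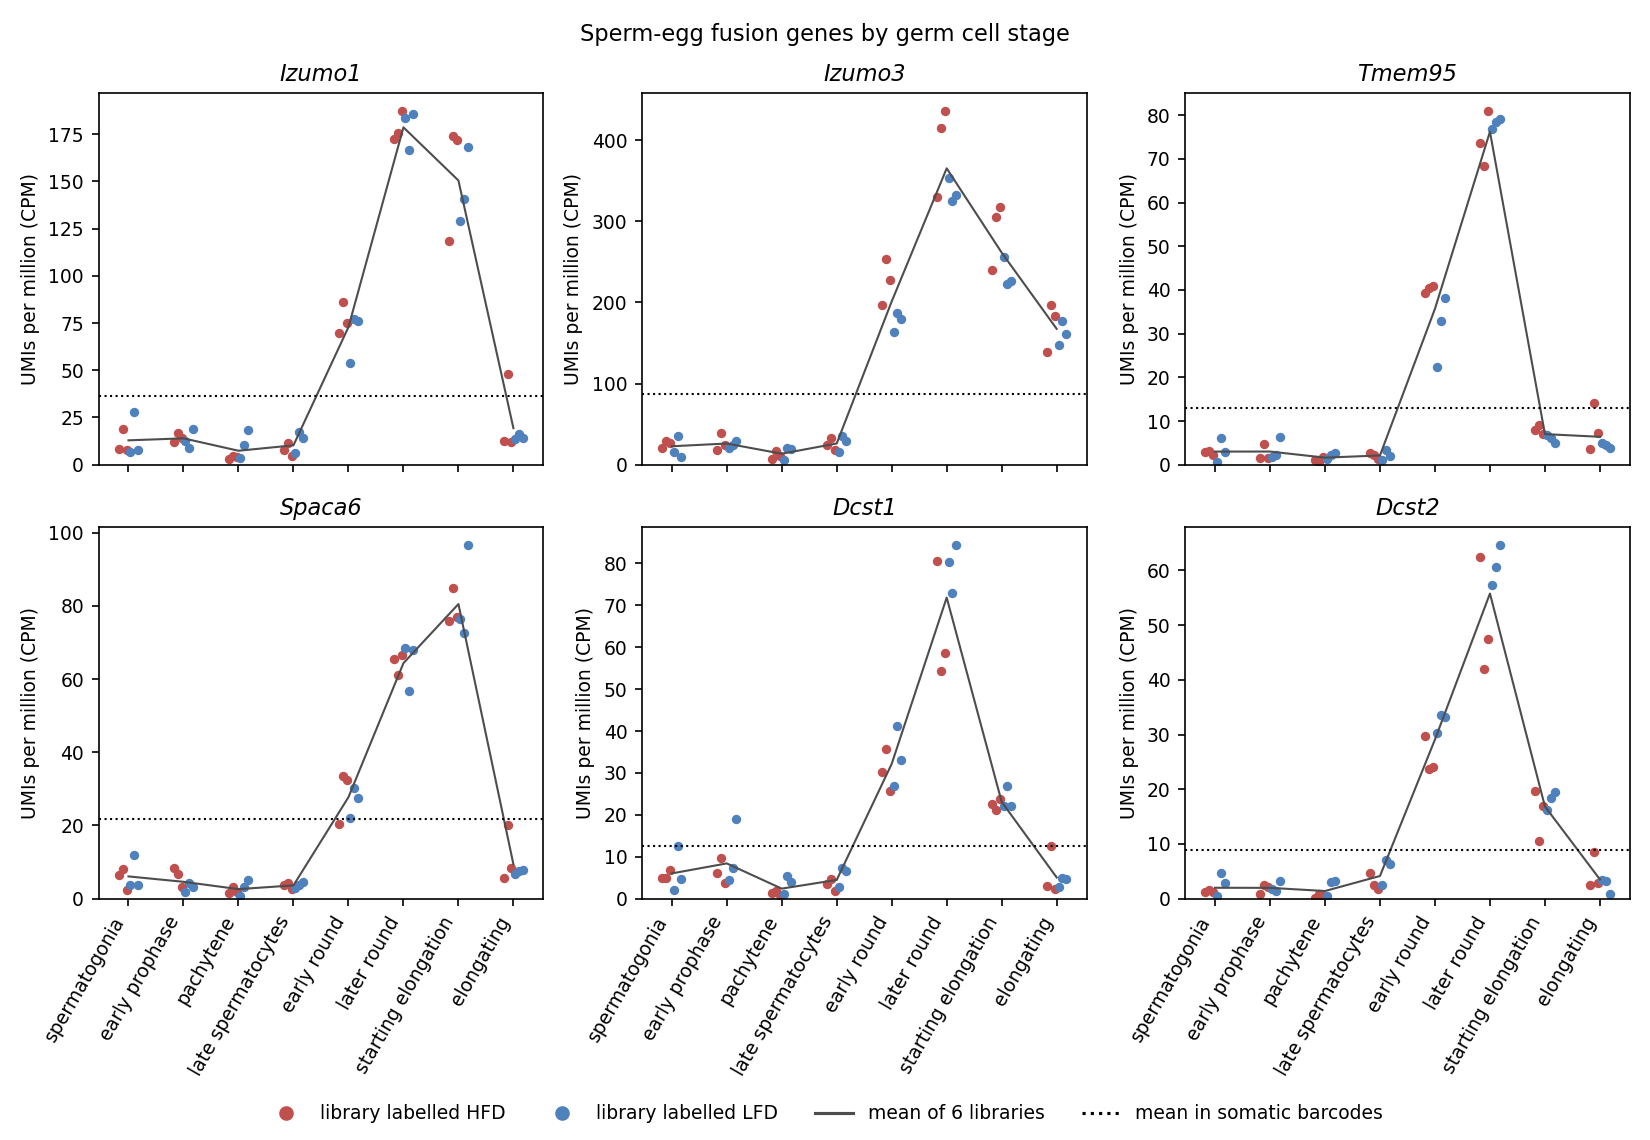
Level of each gene in CPM (linear axes from 0) in 8 germ cell stages, with 1 point per library coloured by labelled diet, the mean of the 6 libraries as a line and the mean in somatic barcodes dotted. Every gene is highest in later round spermatids except Spaca6, which is highest in spermatids starting elongation, and Izumo3 alone stays above its dotted line in elongating spermatids.

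RNA set free from broken cells can give UMIs in barcodes that do not make a gene. Doublets, cells captured under the same barcode, were kept, and their part in such UMIs was not tested. The somatic barcodes (Sertoli cells, macrophages and Leydig, peritubular and stromal cells) were taken as a guide to these UMIs. There Izumo1 stood at 36.3 ± 31.0 CPM, Izumo3 at 86.6 ± 71.3, Tmem95 at 13.0 ± 9.17, Spaca6 at 21.8 ± 7.55, Dcst1 at 12.5 ± 9.68 and Dcst2 at 8.93 ± 6.64 (SD, n = 6). All spermatocyte means of the 6 genes lay below these values. So did the means of Izumo1, Tmem95, Spaca6, Dcst1 and Dcst2 in elongating spermatids and that of Tmem95 in spermatids starting elongation. Such means are called background here, which says only that they lay under the somatic mean and not that a gene was silent. Somatic barcodes were shallower (median 7497 UMIs, against 29391 in pachytene and 29043 in late spermatocytes), so free RNA may take a larger share of their UMIs. In elongating spermatids the Izumo3 values ran from 139 to 197 CPM, against 26.6 to 222 in somatic barcodes, where HFD replicate 3 alone exceeded 103.

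Per barcode the same windows appeared. A UMI of Izumo1 was found in 13.5% of pachytene, 24.5% of late spermatocyte, 77.9% of early round, 97.2% of later round, 72.2% of starting and 23.4% of elongating barcodes, against 14.8% of somatic barcodes. Median depths differed, from 29391 UMIs in pachytene and 35274.5 in later round to 12925 in elongating and 7497 in somatic barcodes. Thinned to 5000 UMIs per barcode, the Izumo1 shares were 4.27%, 7.72%, 28.8%, 57.2%, 39.0% and 9.64%, against 8.70% in somatic barcodes. For Izumo3 the thinned shares were 59.0% in early round, 82.1% in later round, 71.1% in starting and 43.6% in elongating spermatids, against 18.4% in somatic barcodes (unthinned 92.0%, 99.5%, 97.2%, 64.9% and 29.1%). UMIs of all 6 genes were found together in 1274 of 2194 later round barcodes (58.1%), in 94 of 553 early round (17.0%), in 57 of 645 starting (8.84%) and in 3 of 2107 elongating barcodes (0.142%), against 10 of 399 somatic ones (2.51%).

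Neighbouring stages were compared on UMIs summed per library with the edgeR quasi-likelihood test, with the library as a block and Benjamini-Hochberg adjustment over all genes tested. Its log2 differences use TMM scaling, which sets the bulk of genes to no change. Most genes change at every step, so a call says little about a gene, and the share called is given beside each count.

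Within meiosis all means were under the somatic ones. Of the 2 genes tested from early prophase to pachytene spermatocytes, Izumo1 fell by 1.00 ± 0.28 and Izumo3 fell by 0.78 ± 0.18 on the log2 scale (83.5% of 10199 genes were called, 41.1% lower and 42.4% higher, and the higher ones were 50.8% of the calls with TMM and 40.6% with library totals). Median depth was 8116 UMIs in early prophase and 29391 in pachytene barcodes. In UMIs per barcode the direction was the other way, with Izumo1 higher in pachytene spermatocytes in 5 of 6 libraries and Izumo3 in 6. The part of depth and free RNA in these falls was not tested. From pachytene to late spermatocytes all 6 passed as higher, by 0.70 ± 0.32 for Tmem95 to 2.10 ± 0.36 for Dcst2 (82.6% of 12377 genes were called, 40.6% higher). No stage of meiosis stood above the somatic level. In CPM, Izumo3, Dcst1 and Dcst2 were higher in late than in pachytene spermatocytes in 6 of 6 libraries, Izumo1 and Spaca6 in 5 and Tmem95 in 3. The median depths of these stages were alike (29391 and 29043 UMIs), and the part of free RNA in the values was not tested.

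From late spermatocytes to early round spermatids all 6 genes rose, by a log2 of 3.02 ± 0.16 (SE) for Izumo1, 3.07 ± 0.12 for Izumo3, 4.18 ± 0.16 for Tmem95, 3.01 ± 0.15 for Spaca6, 3.03 ± 0.16 for Dcst1 and 3.00 ± 0.18 for Dcst2 (edgeR adjusted p at most 1.2e-09), where 77.0% of 10897 genes tested were called and 37.0% were called higher. The earlier stage was under the somatic level, so free RNA may make up part of its values. These differences may therefore not be the folds of true expression. From early to later round spermatids all 6 rose again, by a log2 of 1.07 ± 0.06 for Izumo3 to 1.52 ± 0.08 for Izumo1 (edgeR adjusted p at most 8.5e-08), where 73.4% of 12400 genes were called, 35.2% higher and 38.2% lower. With library totals in place of TMM the median of all genes at this step went from -0.07 to -0.28 and the higher genes from 48.0% to 36.7% of the calls, while the members ranged from 0.87 for Izumo3 to 1.31 for Izumo1.

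From later round spermatids to spermatids starting elongation the genes parted. Spaca6 rose by a log2 of 1.02 ± 0.07, Izumo1 by 0.44 ± 0.06 and Izumo3 by 0.22 ± 0.06 (76.8% of 13189 genes were called and 35.8% were called higher). Tmem95 fell by 2.68 ± 0.12 on the log2 scale, Dcst1 fell by 0.93 ± 0.09 and Dcst2 fell by 0.99 ± 0.09 (41.0% were called lower, edgeR adjusted p at most 0.0018 for all 6). Tmem95 ended under its somatic mean but above its level in pachytene spermatocytes (1.62 ± 0.753 CPM, SD, n = 6). Its UMIs were in 20.5% of starting barcodes at a median depth of 37094 UMIs, against 2.95% of pachytene barcodes at 29391. How far free RNA limits this fall was not tested. The direction of Izumo1 and Izumo3 depended on the scaling. With library totals in place of TMM, an alternative chosen after seeing the data, they were at -0.27 and -0.49, the median of all genes moved from -0.12 to -0.84, and the share of genes called higher moved from 35.8% to 23.5% and of those called lower from 41.0% to 65.8%. Relative to that median Izumo1 was 0.56 higher with TMM and 0.57 with library totals, and Izumo3 0.34 and 0.35. In CPM both were lower in all 6 libraries. Spaca6 rose and Tmem95, Dcst1 and Dcst2 fell under both scalings.

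**Figure D2:**
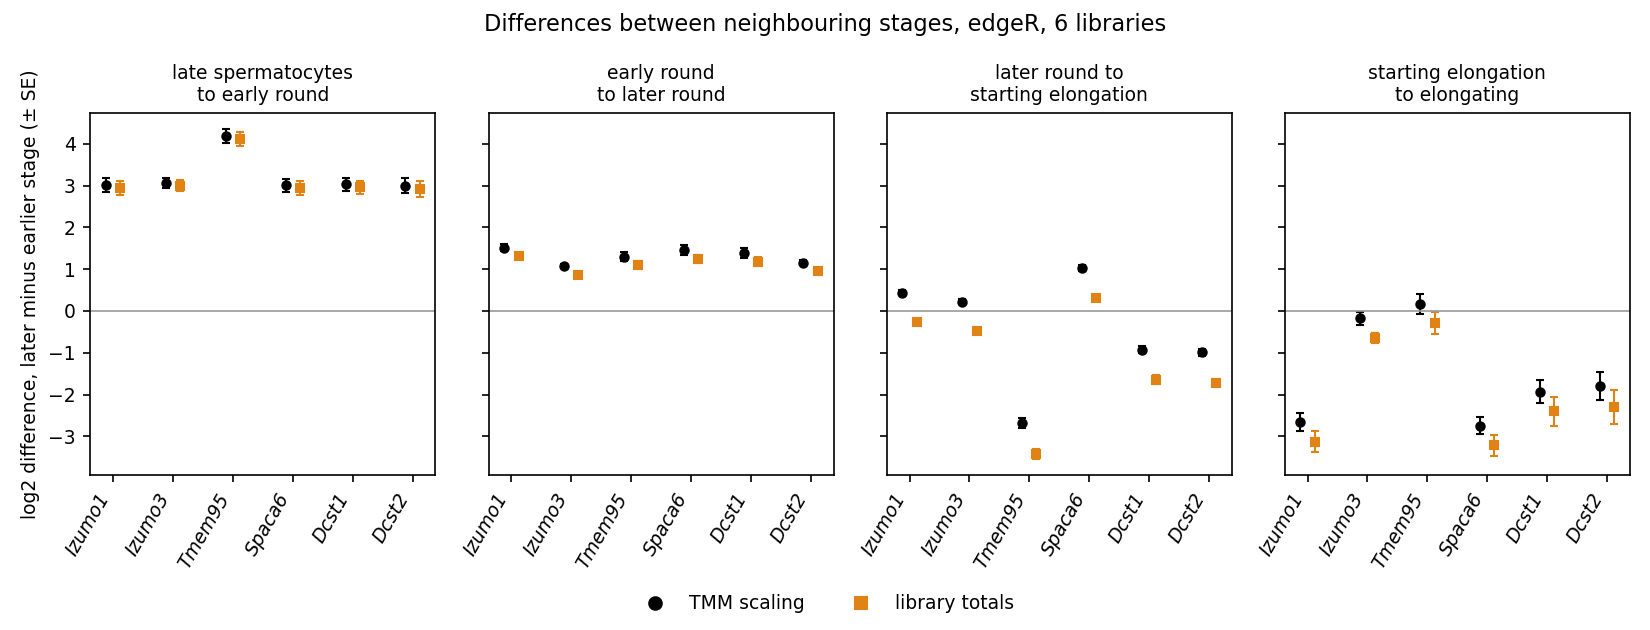
Log2 difference of each gene between neighbouring stages (later minus earlier), with bars of 1 SE from edgeR over 6 libraries, under TMM scaling (circles) and library totals (squares). The first 2 panels show all 6 genes rising. The next shows Tmem95, Dcst1 and Dcst2 below 0 and Spaca6 above 0 under both scalings, with Izumo1 and Izumo3 crossing 0.

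A comparison that no scaling can change is the ratio of the UMIs of 2 genes within a library. Between later round spermatids and spermatids starting elongation the log2 ratio moved in the same direction in 6 of 6 libraries for 13 of the 15 pairs of these genes (exact sign-flip p = 0.03125 each, two-sided, the smallest that 6 libraries allow, not adjusted, with the pairs looked at after the levels were seen). In all, 45 such tests were made over 3 steps, and 5 of 15 pairs from early to later round spermatids and 8 of 15 from starting to elongating spermatids moved the same way in 6 of 6 libraries. In the ratios to Tmem95 its level at the later stage was at background. The log2 ratio of Tmem95 to Spaca6 changed the most, by -3.76 ± 0.41 (SD, n = 6), that of Izumo1 to Tmem95 by 3.17 ± 0.42, that of Spaca6 to Dcst2 by 2.05 ± 0.27 and that of Izumo1 to Spaca6 by -0.58 ± 0.15. Relative to all 5 other genes Spaca6 rose and Tmem95 fell. The remaining 2 pairs were Izumo1 over Izumo3, at 0.23 ± 0.23 with 4 of 6 libraries higher (exact p = 0.125), and Dcst1 over Dcst2, at 0.11 ± 0.31 with 3 of 6 higher (exact p = 0.469).

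From spermatids starting elongation to elongating spermatids Izumo1 fell by 2.65 ± 0.21 on the log2 scale, Spaca6 fell by 2.75 ± 0.20, Dcst1 fell by 1.93 ± 0.28 and Dcst2 fell by 1.80 ± 0.34 (edgeR adjusted p at most 0.00070), where 63.7% of 9081 genes were called, 32.2% lower and 31.5% higher. Izumo3 was at -0.18 ± 0.15 (adjusted p = 0.31), and at -0.64 with library totals, where it passed the edgeR test (adjusted p = 0.0017), the median of all genes went from 0.04 to -0.43 and the higher genes from 49.4% to 24.8% of the calls. Tmem95 was at background in both stages, and Izumo1, Spaca6, Dcst1 and Dcst2 were so in the later one. The elongating gate of HFD replicate 2 stood apart from the other 5 libraries. Its markers of later round spermatids took 1223 CPM against 257 to 319 elsewhere, and its markers of elongating spermatids took 98898 CPM against 196470 to 264075. Without that library the differences were -2.79 ± 0.11 for Izumo1, -2.94 ± 0.13 for Spaca6, -2.27 ± 0.18 for Dcst1, -2.13 ± 0.21 for Dcst2 and -0.09 ± 0.08 for Izumo3.

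Spermatids starting elongation were not alike in Izumo1. At a mean of 5.35 UMIs per barcode, 72.2% of the barcodes had any, against 97.2% in later round spermatids at a mean of 6.82. Barcodes of the gate were therefore put in order within each library by the score of elongating spermatid markers minus that of later round markers, neither of which includes the 6 genes, and cut into 3 terciles of equal size, an ordering chosen after these shares were seen. Izumo1 was at 241 ± 17.6 CPM (SD, n = 6) in the first tercile, 140 ± 48.5 in the middle and 20.1 ± 5.15 in the last. In the middle tercile HFD replicate 1 (67.5 CPM) and LFD replicate 1 (89.8 CPM) stood apart from the other 4 libraries (165 to 176 CPM). The same libraries had the most elongating markers in the whole gate, 151486 and 153311 CPM against 106363 to 129592, and the part of this in their Izumo1 level was not tested. Each library fell, the lowest first tercile (210.5 CPM) stood above the highest last tercile (27.5 CPM), and the share of barcodes with a UMI went from 98.2% to 79.4% and 38.5%. Izumo3 stayed level over the same barcodes, at 271 ± 45.4, 238 ± 48.2 and 274 ± 32.5 CPM, and in 99.1%, 94.9% and 97.7% of barcodes. The difference between the last and the first tercile, on the log2(CPM + 1) scale, was -3.55 ± 0.27 for Izumo1 (exact sign-flip p = 0.03125, two-sided) and 0.03 ± 0.12 for Izumo3 (exact p = 0.719, 3 of 6 libraries higher).

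The other genes fell between these extremes. Spaca6, whose highest tercile in these gates was the first of starting elongation as it was for Izumo1, went from 104 ± 16.7 to 85.0 ± 7.09 and 38.6 ± 6.17 CPM, a log2 difference of -1.40 ± 0.26. Dcst1 went from 34.5 ± 6.54 to 22.1 ± 4.79 and 6.56 ± 3.08 CPM (-2.32 ± 0.81), and Dcst2 from 25.8 ± 8.91 to 14.4 ± 2.94 and 6.28 ± 2.70 (-1.87 ± 0.84). All 3 were lower in the last tercile in 6 of 6 libraries (exact sign-flip p = 0.03125 each). Izumo1, Dcst1 and Dcst2 ended under their somatic means, so the sizes of the falls do not rank the genes. Tmem95 was already under its somatic mean in the first tercile, at 8.90 ± 4.15 CPM. The terciles differ in depth, with medians of 42150.5, 39952 and 26356 UMIs, and the markers that order them took 9.05%, 14.8% and 19.7% of their UMIs. With those markers left out of the totals Izumo1 was at 264, 162 and 24.8 CPM and Izumo3 at 297, 276 and 339. Each tercile held 16 or more barcodes of every library.

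The same ordering within later round spermatids showed Tmem95 falling there already. It stood at 89.6 ± 3.49, 79.1 ± 5.60 and 56.0 ± 9.96 CPM in the 3 terciles, while Spaca6 rose from 57.4 ± 2.17 to 60.01 ± 4.97 and 77.6 ± 8.76. On the log2(CPM + 1) scale the last tercile differed from the first by -0.69 ± 0.27 for Tmem95, 0.42 ± 0.13 for Spaca6, 0.24 ± 0.18 for Izumo1, -0.19 ± 0.09 for Izumo3 and -0.18 ± 0.14 for Dcst1, each in the same direction in 6 of 6 libraries (exact p = 0.03125 each). Dcst2 was lower in 5 of 6 libraries (-0.23 ± 0.19, exact p = 0.0625). In elongating spermatids the terciles of Izumo3 were at 120 ± 42.9, 188 ± 21.3 and 180 ± 30.4 CPM, higher in the last than in the first in 6 of 6 libraries (exact p = 0.03125), while the other 5 genes stayed at or under their somatic means. In all, 18 such comparisons of terciles were made, and their p-values were not adjusted.

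**Figure D3:**
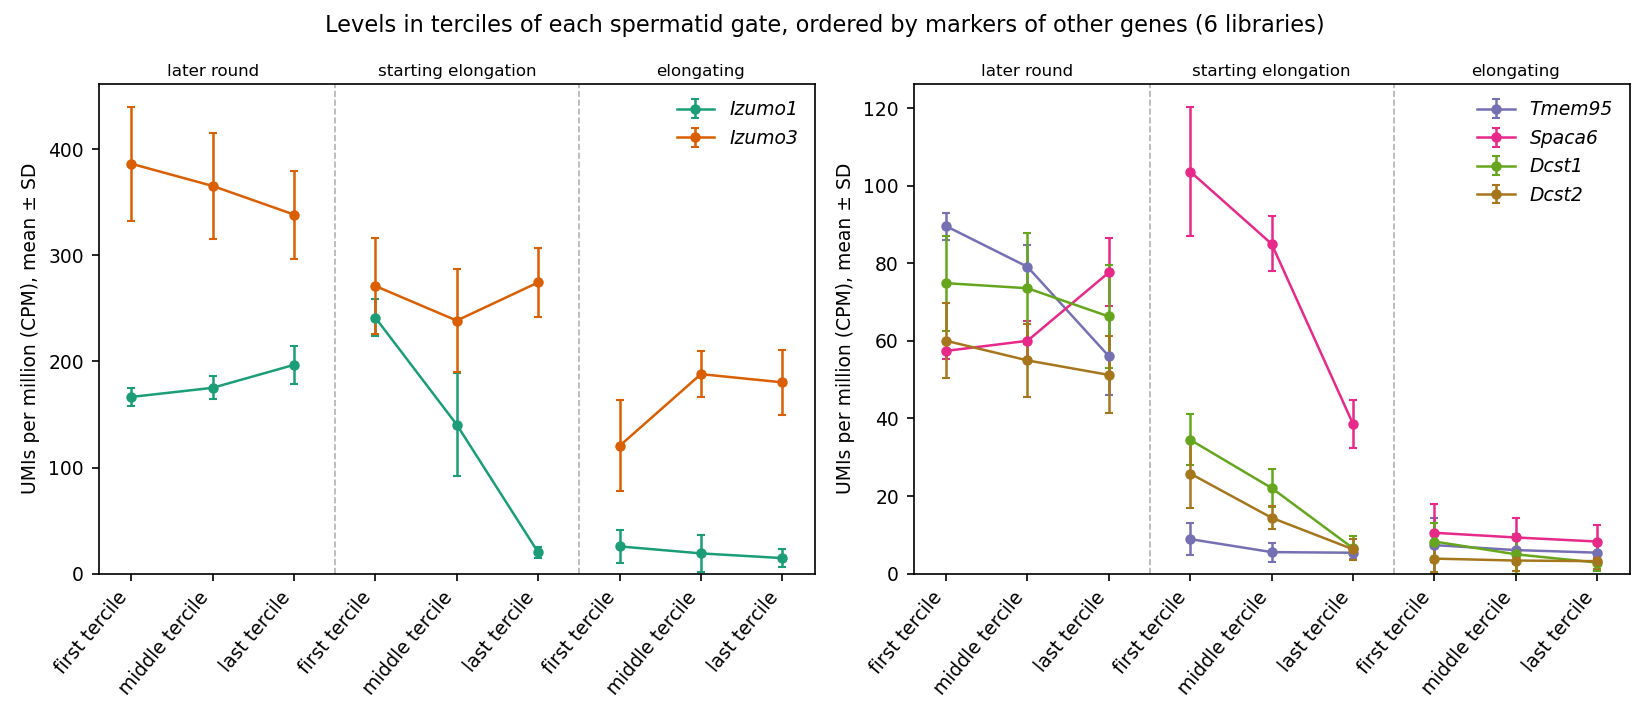
Mean level in CPM (bars of 1 SD over 6 libraries, linear axes from 0) in terciles of 3 spermatid gates, ordered within each library by markers of other genes, for Izumo1 and Izumo3 (left) and for the other 4 genes (right). Izumo1 drops from 241 to 20.1 through the gate of starting elongation while Izumo3 stays between 238 and 274, and Tmem95 is low before Spaca6 begins to fall.

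The genes whose pattern was most like each member were found by Pearson's r of log2(CPM + 1) over 48 sums (8 stages by 6 libraries). The search was among 8949 genes with a mean of at least 10 CPM. Stage markers were left out of it, so a marker that is nearer would not be named. These points share libraries and stages, and the values are descriptions. Nearest to Izumo1 were Atp6v1e2 (r = 0.988), Fam209 (0.986) and Best1 (0.986), and nearest to Izumo3 were Fam83e (0.993), 1700095B10Rik (0.989) and Zfp474 (0.989). Nearest to Tmem95 were Gm20611 (0.973), Spam1 (0.971), which encodes a hyaluronidase of the sperm surface, and 4921509A06Rik (0.958), all of which peaked in later round spermatids and were low one stage later (Spam1 at 231 and then 13.4 CPM). Nearest to Spaca6 were Erich3 (0.979), Kif2b (0.976) and Gm45604 (0.976), of which Erich3 and Kif2b peaked at the start of elongation. Nearest to Dcst1 were Slc22a14 (0.972), Zp3r (0.958), the acrosomal protein sp56, and Spaca5 (0.955). Nearest to Dcst2 were Tssk4 (0.977), a kinase of spermatids, Odf3l1 (0.973) and Tmem225 (0.972). Among the members, Izumo1 and Spaca6 were the closest pair (0.970) and Tmem95 and Spaca6 the farthest (0.777).

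Other genes of gamete fusion mostly rose into round spermatids as well. Of the 9 counted in these libraries, 8 were tested from late spermatocytes to early round spermatids, where 6 rose and 1 fell (37.0% and 40.0% of all genes). The median log2 difference was 1.71, against -0.06 over all genes. Llcfc1 (SOF1), a sperm protein required for fusion, and 4930451I11Rik passed the test in all 6 steps and peaked in later round spermatids, at 690 and 243 CPM. Crisp2, a secretory protein of the acrosome and tail, had the highest level and stood at 2756 CPM in late spermatocytes and 4060 in elongating spermatids. The family members Izumo2 and Izumo4, named here after their values were seen, went opposite ways. Izumo2 rose to 658 CPM at the start of elongation and was still at 474 in elongating spermatids, whereas Izumo4 was highest in late spermatocytes, at 457 CPM, and was at 246 in later round spermatids. At the step into elongation 5 of 8 of the list rose and 3 fell with TMM scaling (35.8% and 41.0% of all genes). List counts were not recomputed with library totals, so those at this step hold for TMM only.

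Genes of egg-coat binding and oviduct passage were mixed in their windows. Of 22, 16 rose and 3 fell from pachytene to late spermatocytes (40.6% and 42.0% of all genes). Into early round spermatids 12 of 21 tested rose and 5 fell (37.0% and 40.0% of all genes). The list's median log2 differences at these steps were 1.18 and 0.37, against -0.01 and -0.06 over all genes. Of the 6 genes that passed the test in all 6 steps, the highest were Lypd4 (968 CPM in late spermatocytes, 1213 in early round), the zona-binding protein gene Zpbp (473 and 582) and Acr (210 and 266), which encodes the acrosomal protease acrosin. Tex101, whose protein takes part in the maturation of ADAM3, had the highest level, at 1896 CPM in early prophase spermatocytes and 56.5 in late spermatocytes. At the step into elongation 11 of 22 rose and 9 fell with TMM scaling (35.8% and 41.0% of all genes), and Spam1, the gene of this list with the largest fall, fell by 3.43 on the log2 scale.

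The chaperones that fold sperm membrane proteins in the endoplasmic reticulum mostly fell through these stages. Of 6, 4 fell and 1 rose into early round spermatids (40.0% and 37.0% of all genes) and 5 fell and 1 (Calr3, the testis form of calreticulin) rose into spermatids starting elongation (41.0% and 35.8%). The medians were -0.19 and -0.78, against -0.06 and -0.12 over all genes. Clgn (calmegin) was at 904 CPM in late spermatocytes, 478 in later round spermatids and 163 at the start of elongation. In the same stages Hspa5 (BiP) went from 616 to 94.5 and 21.1 CPM and Canx (calnexin) from 87.3 to 30.5 and 11.7. Pdilt, a testis-specific isomerase that works with calmegin, rose instead, from 13.9 CPM in late spermatocytes to 312 in later round spermatids, and was at 174 at the start of elongation. Of the egg-side partners, Izumo1r had 1 UMI among 263632574 in the germ cell gates, below the 0.0114 CPM that 3 UMIs would give. Cd9 was at 0.52 CPM in later round spermatids and 10.9 at the start of elongation, and Cd81 at 2.11 and 3.64. Both passed the test at that step. The summed level of 6 macrophage markers was 1.67 to 3.84 CPM per library in later round spermatids and 14.2 to 25.3 at the start of elongation. Outside the macrophage gate C1qb reached 42.0 CPM in one gate, while Cd74, C1qa, C1qc, Lyz2 and Csf1r reached at most 1.28.

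The labelled diets were compared to ask whether 2 weeks of high-fat feeding changed these genes. In the main tests no member that was tested passed. All 6 were tested in the whole testis and in 5 stages, and 5 in pachytene spermatocytes, where Dcst2 was too low. No gene at all passed in these edgeR tests (0.0% of 20727 genes tested in the whole testis, with 471 at an unadjusted p under 0.05). DESeq2 called 0 genes in the whole testis and 1 in pachytene spermatocytes, which was none of the 6. In later round spermatids edgeR called 0.0% of 13697 genes, with 477 at an unadjusted p under 0.05 and 0 calls in DESeq2.

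The diets of every member overlapped in the pachytene, late spermatocyte and elongating gates (they did not for 8.2%, 9.0% and 9.11% of all genes). In elongating spermatids Izumo3, the gene above background there, was 139, 197 and 183 CPM in the libraries labelled HFD and 148, 177 and 161 in those labelled LFD, a log2 difference of -0.28 ± 0.37 (SE, edgeR adjusted p = 0.79). The mean CPM, which has no TMM scaling, was higher in the libraries labelled HFD (173 against 162). The source of this difference in direction was not tested.

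In the whole testis, where fewer spermatids and less RNA per spermatid cannot be told apart, Dcst1 was 26.8, 25.03 and 23.8 CPM in the libraries labelled HFD and 32.2, 28.5 and 46.7 in those labelled LFD. It was the 1 gene of the 6 whose diets did not overlap, as was so for 6.68% of all genes. Its log2 difference (HFD minus LFD) was -0.44 ± 0.19 (SE, edgeR adjusted p = 0.99). For the other 5 the differences ran from -0.36 ± 0.20 for Dcst2 to 0.18 ± 0.16 for Izumo3, all with adjusted p of 0.99.

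Within early round spermatids 3 of the 6 genes did not overlap between diets, against 12.3% of 10177 genes. Izumo3 was 196, 253 and 228 CPM in the libraries labelled HFD and 163, 187 and 180 in those labelled LFD, a log2 difference of 0.32 ± 0.12. Tmem95 was 39.3, 40.4 and 40.9 CPM against 22.4, 33.0 and 38.1 (0.35 ± 0.19). Dcst2 was 29.7, 23.7 and 24.1 CPM against 30.3, 33.5 and 33.2 (-0.34 ± 0.17). The nearest values of the diets lay close together for Tmem95 and Dcst2, and each of these genes had an edgeR adjusted p of 0.66.

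Within later round spermatids, where the genes were highest, none of the 6 had diets that did not overlap (8.07% of all genes did). Izumo1 differed by a log2 of -0.05 ± 0.10, Spaca6 by -0.05 ± 0.12, Tmem95 by -0.12 ± 0.11 and Izumo3 by 0.17 ± 0.11 (edgeR adjusted p 0.90 to 0.96). Dcst1 and Dcst2 were lower in the libraries labelled HFD, by -0.34 ± 0.16 and -0.30 ± 0.15 (adjusted p = 0.90), and both stayed lower with any 1 library left out (-0.534 to -0.211 for Dcst1 and -0.484 to -0.168 for Dcst2). The call rested on 1 library. Without HFD replicate 1, Dcst1 was at -0.53 ± 0.11 and passed the test (edgeR adjusted p = 0.042), one of 205 genes called in place of 0. Dcst2 was then at -0.48 (adjusted p = 0.054). HFD replicate 1 had 2 haemoglobin UMIs and LFD replicate 1 had 0, unlike the other 4 libraries, and the part of this in the difference was not tested. In spermatids starting elongation Tmem95, at background, was the 1 gene whose diets did not overlap (6.38% of all genes). The differences ran from -0.16 ± 0.26 for Dcst2 to 0.21 ± 0.14 for Izumo3 among the 5 genes above background, with adjusted p of 0.97 or more.

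**Figure D4:**
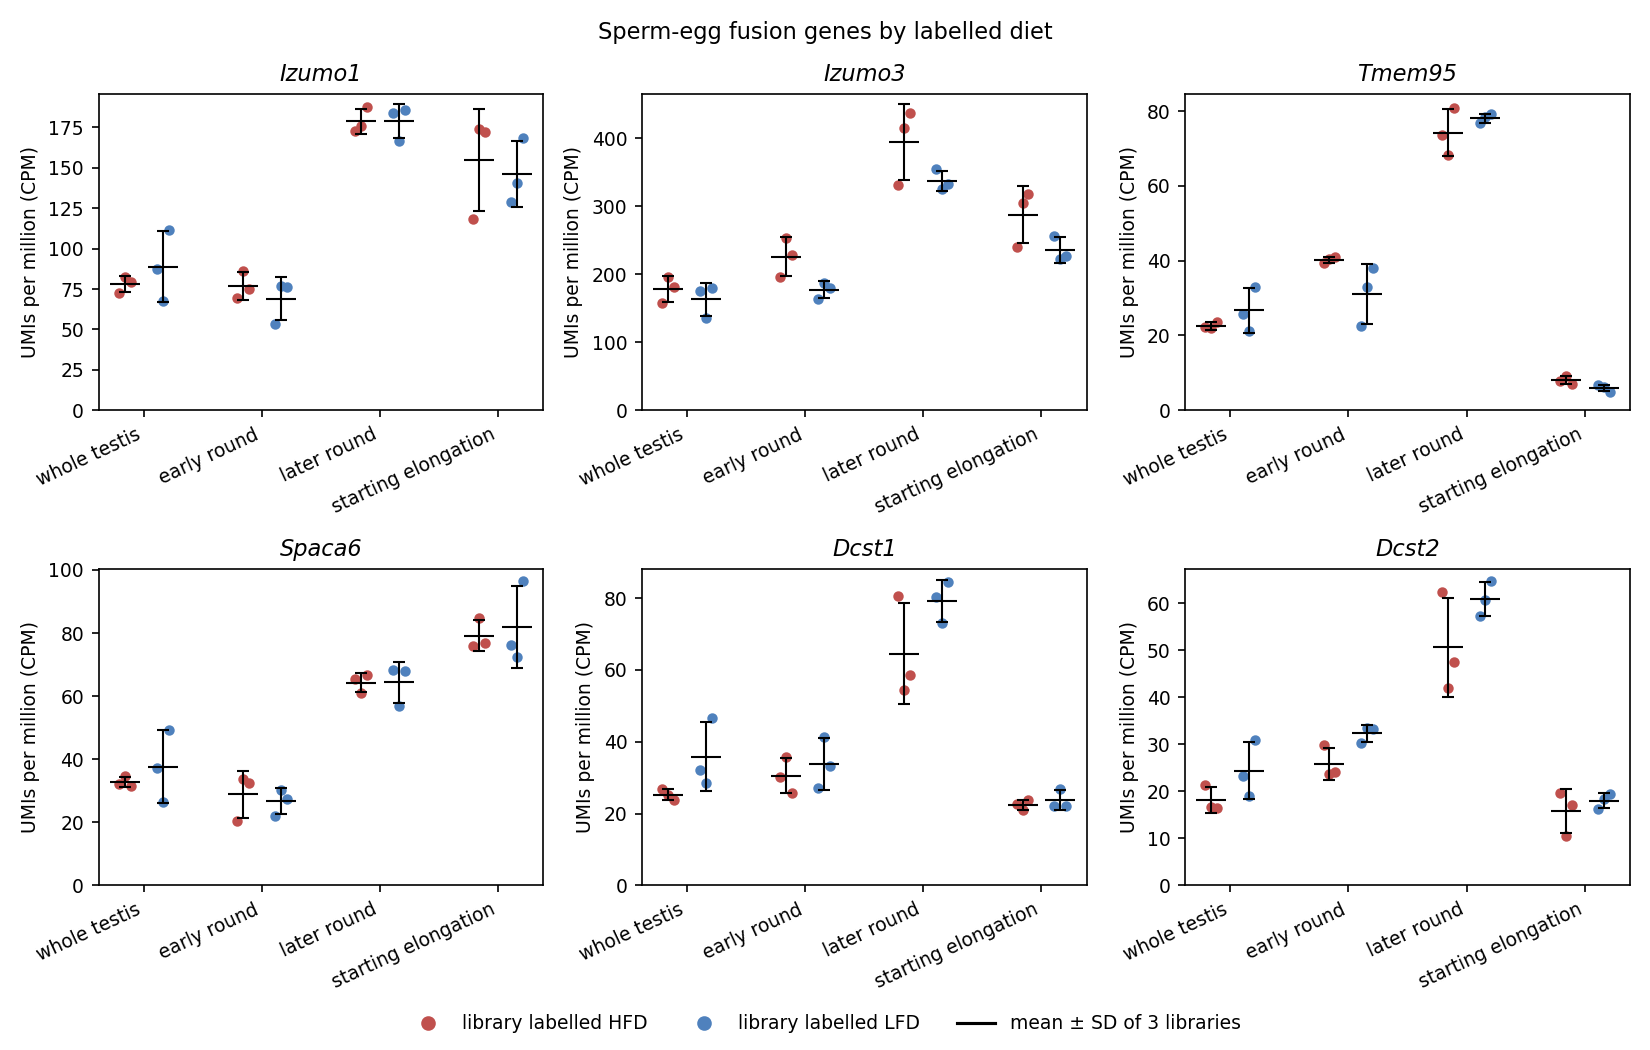
Level of each gene in CPM (linear axes from 0) by labelled diet, in the whole testis and in 3 spermatid stages, with 1 point per library and bars for the mean ± SD of 3 libraries. The diets overlap for every gene in later round spermatids, and the Dcst1 and Dcst2 values of HFD replicate 1 lie apart from those of the other 2 HFD libraries there.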

How the data were processed

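Single-cell libraries were processed by the authors with Cell Ranger 6.0.1 against the mm10 reference, and the deposited files hold UMI counts per gene and barcode, not normalized. The labels name the 3' kit in an earlier chemistry version than the study's methods, so the chemistry is uncertain. The study's clustering and its own tests of differences were not used. The 6 genes, the gene lists and the tests were chosen with earlier results of these data known.

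Barcodes of at least 5000 UMIs were scored by the mean z-score of log-normalized marker UMIs per stage and placed at a score of at least 0.5 and 0.25 above the next, a scoring chosen after the files were seen. The study's filter on genes per barcode removed 0 barcodes. UMIs were summed per library and stage and tested with edgeR 4.0.16 (glmQLFit, low counts filtered with filterByExpr, TMM), without a block for diet and with the library as a block for stage steps. DESeq2 1.42.0 was an alternative. A call is an adjusted p under 0.05. Standard errors were taken from the F value. Doublets were kept, and leaving out the top Scrublet scores (6.86% of barcodes) was an alternative. Tests were checked on simulated counts. Python 3.11.15, scipy 1.17.1, scanpy 1.11.5 and R 4.3.3 were used.

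All 6 members were named throughout. For each, the 3 genes with the highest r were named, and from each list the 2 to 4 genes that passed the test in the most steps or had the highest level. Shares thinned to 5000 UMIs are expected values. Libraries of each diet came from separate mice, and the members had 1113 to 15882 UMIs per library. The ordering into terciles and the ratios between members were added after levels were seen.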

Additional observations from a re-analysis of the deposited data

Results flagged for a closer look

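Among 48 groups of 6 library values (6 genes in 8 stages), 6 had a library far from the others, and chance sets 1 in 20 groups apart in this way. All 6 were HFD replicate 2. Genes of a gate share its barcodes, so the groups are not separate and their count cannot be weighed against that rate. In its elongating spermatids Izumo1 was at 47.8 CPM against 12.1 to 16.4 in the other 5 libraries, Tmem95 at 14.2 against 3.68 to 7.23, Spaca6 at 20.2 against 5.57 to 8.44, Dcst1 at 12.6 against 2.41 to 5.04 and Dcst2 at 8.48 against 0.787 to 3.34. Izumo3, at 197 CPM there, was not set apart. In the same gate of that library the later round markers were at 1223 CPM against 257 to 319, and the part of this in the levels was not tested. In spermatids starting elongation Dcst2 was at 10.5 CPM in HFD replicate 2 against 16.2 to 19.6, from 50 barcodes.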

How the results depend on the processing

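At the 6 stage steps the counts of called genes stayed within 1.5 times under all 84 alternatives, and 402 of 418 alternative values of the members' differences kept their direction and side of the threshold. Of 240 alternative values of the members' levels, 227 moved by less than 1 SD. From later round spermatids to spermatids starting elongation Izumo1 and Izumo3 reversed with library totals (-0.27 and -0.49). From there to elongating spermatids Tmem95, at background, reversed with library totals (-0.29) and with no filter on low counts (-0.00321). Izumo3 lost its call into elongation with no filter (0.055, edgeR adjusted p = 0.54), with no replicate block, that is no library term (0.22, adjusted p = 0.056), and with a minimum of 3000 UMIs (0.16, adjusted p = 0.087). Without that block the 6 steps gave 8082, 9461, 7585, 8332, 9745 and 5546 calls.

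For the labelled diets the count of called genes moved from 0 with no filter to 84 in pachytene spermatocytes, 9 in late spermatocytes, 9 in early round spermatids, 8 in later round spermatids and 1 in spermatids starting elongation, and with DESeq2 to 1 in pachytene spermatocytes. The 84 genes called in pachytene spermatocytes with no filter were of 22725 tested, and 83 of them were lower in the libraries labelled HFD. They held 1 of the 6 members, all 6 of which were tested there, against 5 in the main test. Leaving out 1 library gave 0 to 2 calls in the whole testis, 0 to 34 in pachytene spermatocytes (34 without LFD replicate 1), 0 to 302 in early round, 0 to 205 in later round and 0 to 194 in starting spermatids, the highest without HFD replicate 1 except in pachytene spermatocytes. A batch term for the replicate 1 libraries gave 0 calls in all 7 tests. With the replicate number as a block there were 24 calls in the whole testis, 24 in pachytene spermatocytes, 1 in early round and 1 in starting spermatids and 0 in the other 3 tests. Same-numbered libraries deviated together with r of 0.487, 0.0311 and 0.262 in the whole testis and -0.0786, 0.0187 and 0.129 in later round spermatids, so the numbers were not taken as pairs.

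Some members' diet differences near 0 changed sign with single libraries left out. Spaca6 ran from -0.346 to 0.0173 in the whole testis, -0.0335 to 0.274 in early round, -0.145 to 0.0359 in later round and -0.2002 to 0.0244 in starting spermatids. Izumo1 ran from -0.0196 to 0.229, from -0.110 to 0.0105 and from -0.0377 to 0.138 in the same 3 spermatid stages, and Dcst2 from -0.442 to 0.0656 in starting spermatids. With a minimum of 3000 UMIs Spaca6 was at -0.000750 in early round and Izumo1 at -0.0213 in starting spermatids. With a stricter gate margin Izumo1 was at -0.0171 in starting and Izumo3 at 0.0503 in elongating spermatids. The cause of these changes was not tested.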
